A study of Mus musculus with 8 samples.

Results

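The genes described here are 7 transcription factor genes of resting T cells, Tcf7, Lef1, Bach2, Satb1, Foxp1, Ets1 and Ikzf1, out of 19812 genes measured. They were chosen by name, through 13 non-control probes that carry these symbols on the array, and the brightest probe of each gene over the 7 conditions gave its value. Splenic CD8+ T cells came from OT-I mice on the C57BL6 background. OT-I cells carry a transgenic T cell receptor (TCR) for the ovalbumin peptide SIINFEKL on H-2Kb. They were isolated magnetically with a Pan T cell kit, with no sort on a naive phenotype, and were cultured in RPMI with serum. Untreated cells gave 2 arrays. The other 6 conditions had 1 array each: interferon beta (IFNβ) for 2 h, IFNβ for 7 h, TCR stimulation with SIINFEKL streptamers for 1 h, the same for 6 h, IFNβ for 1 h followed by 1 h of TCR stimulation, and IFNβ for 1 h followed by 6 h of TCR stimulation. The series asks how type I interferon changes T cell responses.

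Naive CD8+ T cells are held in a quiescent, long-lived state by a small group of nuclear factors. TCF1 (the product of Tcf7) and LEF1 are HMG-box proteins that bind the same DNA motif and keep T cell identity and the capacity for memory. BACH2 is a repressor that competes with AP-1 factors for their sites, SATB1 organises chromatin in T cells, FOXP1 restrains exit from quiescence, ETS1 supports survival and IL-7 receptor expression, and Ikaros (the product of Ikzf1) represses genes through histone deacetylase complexes. Signals from the TCR and from inflammatory cytokines drive naive cells towards effector programmes in which part of this group is silenced.

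All 7 genes were well above background on 8 of 8 arrays, as were 15612 of the 19812 genes, and no probe of theirs was saturated on any array. Between 26065 and 29533 of 43379 non-control spots per array were well above background. The small number of arrays limits the precision. Levels below are linear signals scaled so that the 75th percentile of each array is 1500, and differences are on the log2 scale. The untreated arrays differed from each other by no more than 0.11 log2 at any of the 7 genes. Over 152 repeated probes their difference had a robust SD of 0.0353, against 0.035 from spot noise, so their mean was counted as 1 sample. The labels do not say that samples came from separate cultures or animals, so every p-value below measures only the spread between these arrays. No treated condition had a second array, so conditions sharing a treatment served as the replicates. IFNβ for 2 h, for 7 h and before TCR stimulation counted as 1 level. In the model that adds IFNβ and TCR effects, the SEs therefore also hold differences between such conditions, beyond measurement noise. The arrays lay on 2 slides. Slide 1 held 1 untreated array, IFNβ 2 h and both arrays with 1 h of TCR stimulation, and slide 2 held 1 untreated array, IFNβ 7 h and both arrays with 6 h. The scanner files and the series value table give opposite names to the pair of arrays with 1 h of TCR stimulation. The value table's names are used, and with the other names every IFNβ difference within that pair changes sign.

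Markers of other cells moved with the treatments. The summed signal of the CD8 T cell markers, 10 of 10 measured on all arrays, was 694665 and 694986 on the untreated arrays, and relative to the untreated mean it was 1.34 and 1.39 after IFNβ 2 h and 7 h, 1.31 after TCR 1 h, 1.06 after IFNβ with TCR 1 h, and 0.639 and 0.68 after 6 h of TCR stimulation alone and with IFNβ. The sum of 11 B cell markers was 2.82 and 2.36 times the untreated mean after IFNβ 2 h and 7 h, 0.928 after TCR 1 h, 0.778 after IFNβ with TCR 1 h, 0.274 after TCR 6 h and 0.311 after IFNβ with TCR 6 h. Markers of class II presenting cells summed to 2.19 and 1.39 times untreated after IFNβ 2 h and 7 h and to 0.547 and 0.657 on the arrays at 6 h of TCR stimulation. Erythroid markers were at 2.29 after both times of IFNβ alone. Myeloid markers were at 0.606 and 0.389 with IFNβ alone and at 0.28 and 0.293 at 6 h. NK cell markers were at 1.09 and 1.34 with IFNβ alone and at 2.94 and 3.2 at 6 h, and CD4 T cell markers at 0.805 and 0.676 with IFNβ alone and at 1.04 and 0.959 at 6 h. The part of such cells in the results below was not tested. In these bulk samples, fewer cells of a type and less RNA per cell cannot be told apart.

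Stimulation through the TCR for 6 h separated the 7 genes. Tcf7, Lef1, Ets1 and Ikzf1 fell, Foxp1 rose, and Bach2 and Satb1 did not pass the test. With limma and Benjamini-Hochberg adjustment over all genes, 4 of 7 passed as lower, where 22.8% of all genes tested did, and 1 of 7 passed as higher, where 22.3% did. The model compared 2 arrays with 6 h of TCR stimulation with 3 samples without, adjusted for IFNβ. Over the 7 conditions the signal of Tcf7 ranged over 4.26 log2 (19.2-fold), Lef1 over 3.78, Ets1 over 3.69, Ikzf1 over 2.62, Bach2 over 2.06, Foxp1 over 1.39 and Satb1 over 1.04, where the median range of all genes was 1.66.

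**Figure D1:**
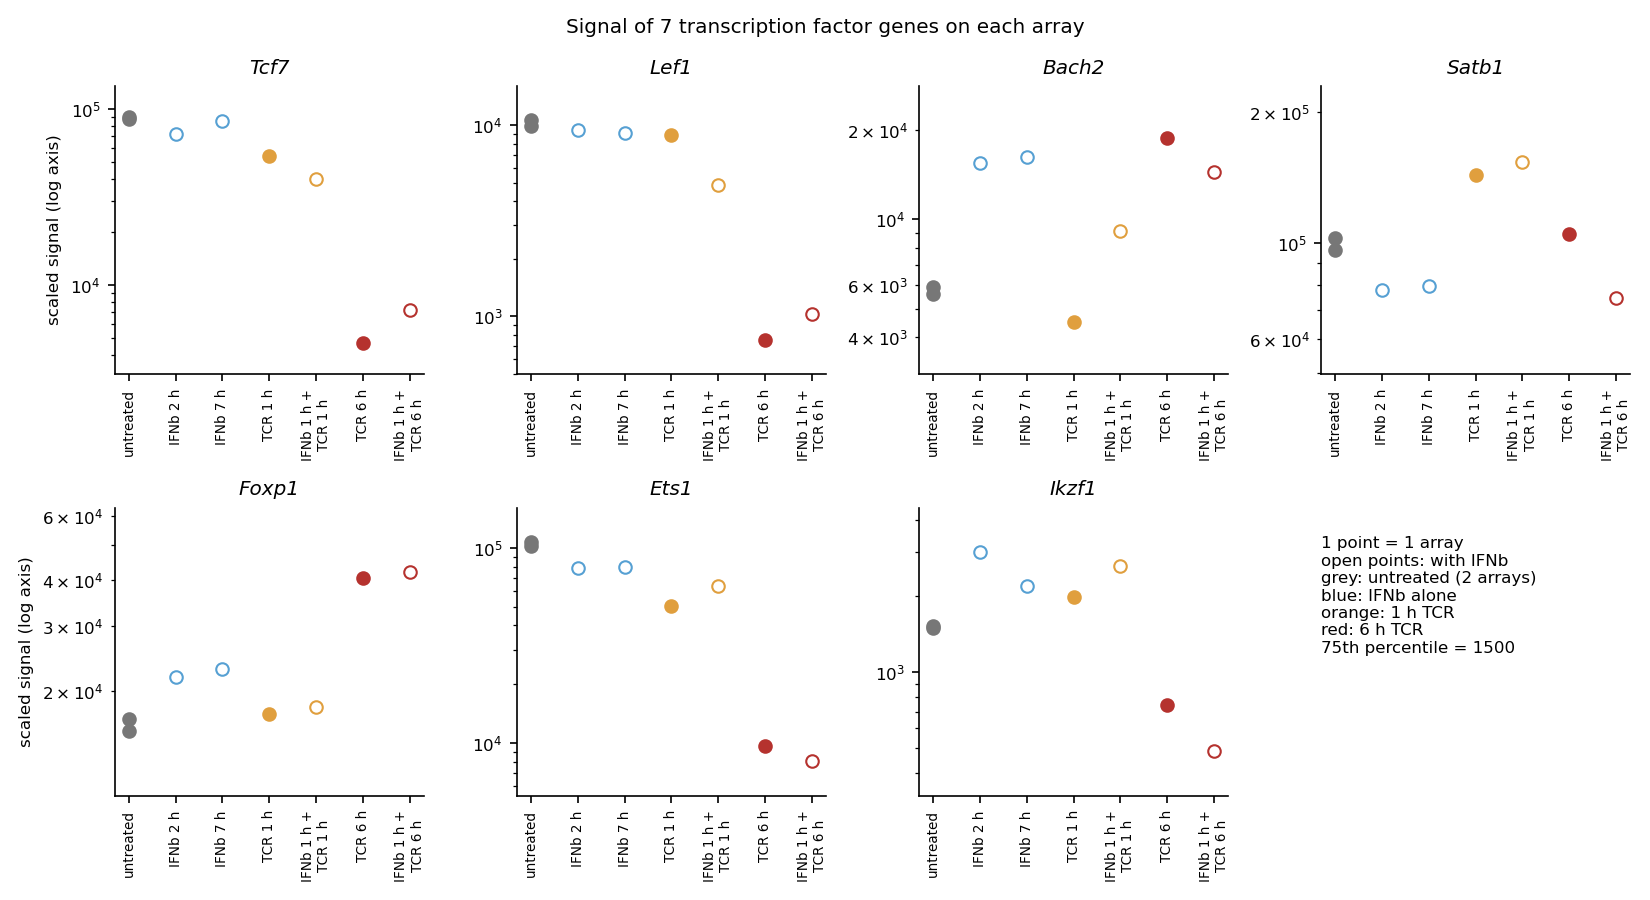
Scaled signal of each of the 7 genes on each of the 8 arrays, 1 point per array, on log axes whose limits differ between panels; open points mark arrays with IFNβ. Tcf7, Lef1 and Ets1 lie more than 2 log2 lower on both arrays with 6 h of TCR stimulation than on any other array, Foxp1 is highest on those arrays, and Bach2 is high on both arrays with IFNβ alone and on both arrays with 6 h of TCR stimulation.

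Tcf7 encodes TCF1. Its probe lies at chr11:52066114-52066173 on the minus strand in build mm9. The signal was 90209 and 88297 on the untreated arrays, 72482 after IFNβ 2 h, 85759 after IFNβ 7 h, 53860 after TCR 1 h, 40224 after IFNβ with TCR 1 h, 4646 after TCR 6 h and 7221 after IFNβ with TCR 6 h. Both arrays at 6 h were far below all others, and both arrays at 1 h lay below every array without TCR stimulation. The difference at 6 h was -3.83 ± 0.30 (SE), a 14.2-fold fall, with an adjusted p of 0.00046 by limma and the same direction in 2 of 2 pairs of arrays. Within slide 2 alone, and with the slide as a block, the estimate was -3.91, with limma adjusted p of 0.0093 and 0.00075. Both fits compare the same arrays of slide 2, so for this and the other genes they give 1 estimate, not 2 checks. At 1 h it was -0.82 ± 0.30 (limma adjusted p = 0.17), and -0.80 within slide 1. The second probe of Tcf7, nearer the 5′ end of the transcript at chr11:52066831-52066890, gave -3.84 ± 0.31 at 6 h (limma adjusted p = 0.00043 over all probes).

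Lef1 encodes the partner of TCF1. Its probe joins exons across 18162 bases, chr3:130907851-130926012 on the plus strand in mm9. The signal was 10700 and 9882 on the untreated arrays, 9452 after IFNβ 2 h, 9080 after IFNβ 7 h, 8927 after TCR 1 h, 4872 after IFNβ with TCR 1 h, 749 after TCR 6 h and 1036 after IFNβ with TCR 6 h. As for Tcf7, the lowest arrays were the pair at 6 h, but at 1 h only the array with IFNβ stood well below the untreated ones. The fall at 6 h was -3.48 ± 0.33 (11.1-fold, limma adjusted p = 0.00062, lower in 2 of 2 pairs), and -3.43 within slide 2 and with the slide as a block. At 1 h the difference was -0.57 ± 0.33 (limma adjusted p = 0.36), and -0.61 within slide 1. That estimate rested on the array with IFNβ: without it the value was -0.03, and without the array of TCR 1 h alone it was -1.02. The level after TCR 1 h differed from that after IFNβ 7 h by 0.02, and IFNβ 7 h from IFNβ 2 h by 0.06, both under the largest difference between untreated arrays. A second Lef1 probe was well above background on 1 of 8 arrays and was not used.

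Ets1, an ETS-domain factor, was measured by 4 probes on chromosome 9, the brightest at chr9:32564860-32564919 on the plus strand (mm9). The brightest gave 101892 and 107177 on the untreated arrays, 78511 after IFNβ 2 h, 80084 after IFNβ 7 h, 50260 after TCR 1 h, 63880 after IFNβ with TCR 1 h, 9656 after TCR 6 h and 8071 after IFNβ with TCR 6 h. By this probe the arrays fell into 3 levels that did not overlap: without TCR stimulation, at 1 h and at 6 h. By the other Ets1 probes the arrays at 1 h overlapped those without TCR stimulation. The difference at 6 h was -3.32 ± 0.26 (10-fold lower, limma adjusted p = 0.00046, lower in 2 of 2 pairs), and -3.39 within slide 2 and with the slide as a block. At 1 h it was -0.64 ± 0.26 (limma adjusted p = 0.21), and -0.66 within slide 1.

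The probes of Ets1 gave the same call at 6 h and different sizes. From 5′ to 3′ along the transcript, with starts at 32561816, 32561826, 32562878 and 32564860, the estimates at 6 h were -2.07, -1.83, -2.54 and -3.32. All 4 passed with limma over all probes, the highest adjusted p being 0.0049. The first pair of probes overlap in sequence and are not independent. At 1 h the estimates were 0.48, 0.46, 0.01 and -0.64, so the sign depended on the probe. On the array with IFNβ alone for 2 h they lay at -1.32, -1.40, -0.80 and -0.41 relative to untreated. Differences between probes were not tested.

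**Figure D2:**
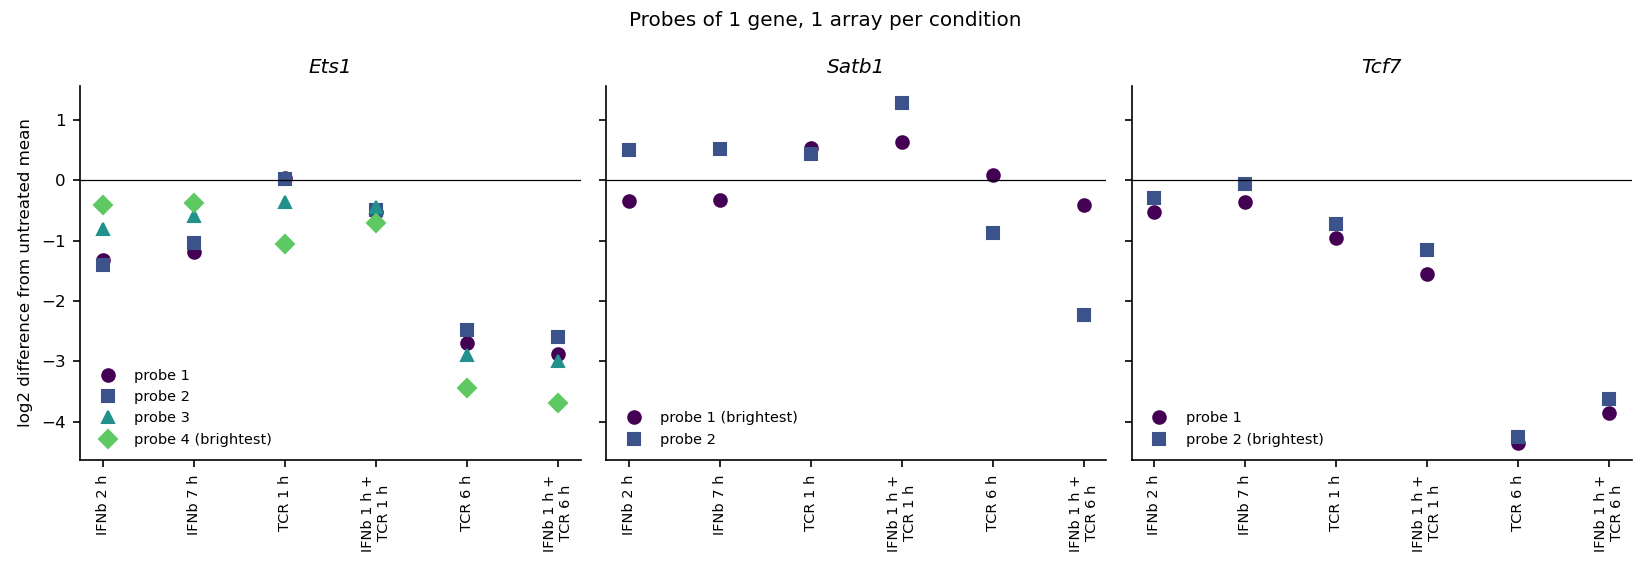
Difference from the untreated mean (log2) on each treated array for each probe of Ets1, Satb1 and Tcf7, 1 point per probe and array. Probes are numbered by their start in the transcript record each was designed on. The probes of Tcf7 run together, the 4 Ets1 probes spread from -0.41 to -1.40 after IFNβ 2 h and are all low at 6 h, and the Satb1 probes part at 6 h of TCR stimulation.

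Ikzf1 encodes Ikaros, a zinc finger protein. Its probe joins exons across 2960 bases, chr11:11658319-11661278 on the plus strand in mm9. That of Foxp1, a forkhead repressor, joins exons across 4338 bases, chr6:98885382-98889719 on the minus strand. Both genes give several splice forms, so the 60 bases of each probe are shown, 5′ to 3′ and in lower case throughout, to say which join was measured:
Ikzf1 probe: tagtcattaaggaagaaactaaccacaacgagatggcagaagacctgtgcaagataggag
Foxp1 probe: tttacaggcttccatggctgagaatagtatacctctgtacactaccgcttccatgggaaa

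For Ikzf1 the signal was 1530 and 1503 on the untreated arrays, 2994 after IFNβ 2 h, 2193 after IFNβ 7 h, 1978 after TCR 1 h, 2631 after IFNβ with TCR 1 h, 740 after TCR 6 h and 488 after IFNβ with TCR 6 h. The arrays at 6 h were the lowest pair, and the untreated arrays came next. The fall at 6 h was -1.80 ± 0.36 (3.48-fold, limma adjusted p = 0.0087, lower in 2 of 2 pairs), and -1.59 within slide 2 (limma adjusted p = 0.046). It missed the threshold without the array of IFNβ with TCR 6 h, at -1.13 (limma adjusted p = 0.098), and with normexp background correction scaled to the 75th percentile, at -1.53 (0.066). With normexp correction and quantile normalization it passed, at -1.34 (limma adjusted p = 0.013). At 1 h the estimate was 0.13 ± 0.36 (limma adjusted p = 0.88), and 0.09 within slide 1.

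For Foxp1 the signal was 15523 and 16707 on the untreated arrays, 21840 after IFNβ 2 h, 22882 after IFNβ 7 h, 17323 after TCR 1 h, 18095 after IFNβ with TCR 1 h, 40633 after TCR 6 h and 42142 after IFNβ with TCR 6 h. The pair at 6 h was above all other arrays, and the pair at 1 h lay near the untreated level. The rise at 6 h was 1.08 ± 0.24 (2.12-fold, limma adjusted p = 0.011, higher in 2 of 2 pairs). Within slide 2 it was 1.08 again, with a limma adjusted p of 0.059. With quantile normalization it was 0.33 (adjusted p = 0.24), and 0.30 when normexp background correction came first (0.17). With normexp correction and scaling to the 75th percentile it was 1.07 (limma adjusted p = 0.11), and without the array of TCR 6 h or of IFNβ with TCR 6 h the limma adjusted p was 0.072 and 0.065. At 1 h it was -0.14 ± 0.24 (limma adjusted p = 0.78), and -0.06 within slide 1.

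Bach2 encodes a partner of the small MAF proteins that represses AP-1 sites. Its probe lies at chr4:32668066-32668125 on the plus strand (mm9). The signal was 5591 and 5919 on the untreated arrays, 15500 after IFNβ 2 h, 16203 after IFNβ 7 h, 4509 after TCR 1 h, 9113 after IFNβ with TCR 1 h, 18774 after TCR 6 h and 14424 after IFNβ with TCR 6 h. Untreated cells and TCR 1 h were low, and 4 arrays were at least 2.51-fold above untreated: both with IFNβ alone and both at 6 h of TCR stimulation. Without IFNβ, TCR 6 h was 3.26-fold above untreated, while with IFNβ it was 0.17 log2 below IFNβ 7 h. The additive estimate at 6 h was 0.67 ± 0.43 (limma adjusted p = 0.25, 95% interval -0.36 to 1.71), and 0.75 within slide 2. It was 1.58 without the array of IFNβ with TCR 6 h (limma adjusted p = 0.032) and -0.07 without that of TCR 6 h (0.89). At 1 h the estimate was -0.69 ± 0.43 (limma adjusted p = 0.39), and -0.54 within slide 1.

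Satb1 encodes a nuclear protein that anchors chromatin loops. Its brightest probe lies at chr17:51879137-51879196 on the minus strand (mm9). The signal was 102405 and 96399 on the untreated arrays, 77718 after IFNβ 2 h, 79591 after IFNβ 7 h, 143603 after TCR 1 h, 153424 after IFNβ with TCR 1 h, 104856 after TCR 6 h and 74596 after IFNβ with TCR 6 h. By this probe both arrays at 1 h were above all others. The estimate at 1 h was 0.76 ± 0.24 (limma adjusted p = 0.13, higher in 2 of 2 pairs), and 0.73 within slide 1. With the untreated arrays as separate samples it passed, at 0.75 (limma adjusted p = 0.046). At 6 h it was 0.01 ± 0.24 (limma adjusted p = 0.97, 95% interval -0.57 to 0.60), and -0.77 with quantile normalization (adjusted p = 0.078).

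A second Satb1 probe, placed at chr17:51946464-51946523 and designed on a different transcript record, went another way at 6 h. Its signal was 2788 and 2798 on the untreated arrays, 3951 and 3980 after IFNβ 2 h and 7 h, 3783 after TCR 1 h, 6797 after IFNβ with TCR 1 h, 1514 after TCR 6 h and 590 after IFNβ with TCR 6 h. These values gave -1.89 ± 0.49 at 6 h (limma adjusted p = 0.02 over all probes), against 0.01 for the brightest probe. The direction of Satb1 at 6 h therefore depended on the probe, and the difference between the probes was not tested.

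**Figure D3:**
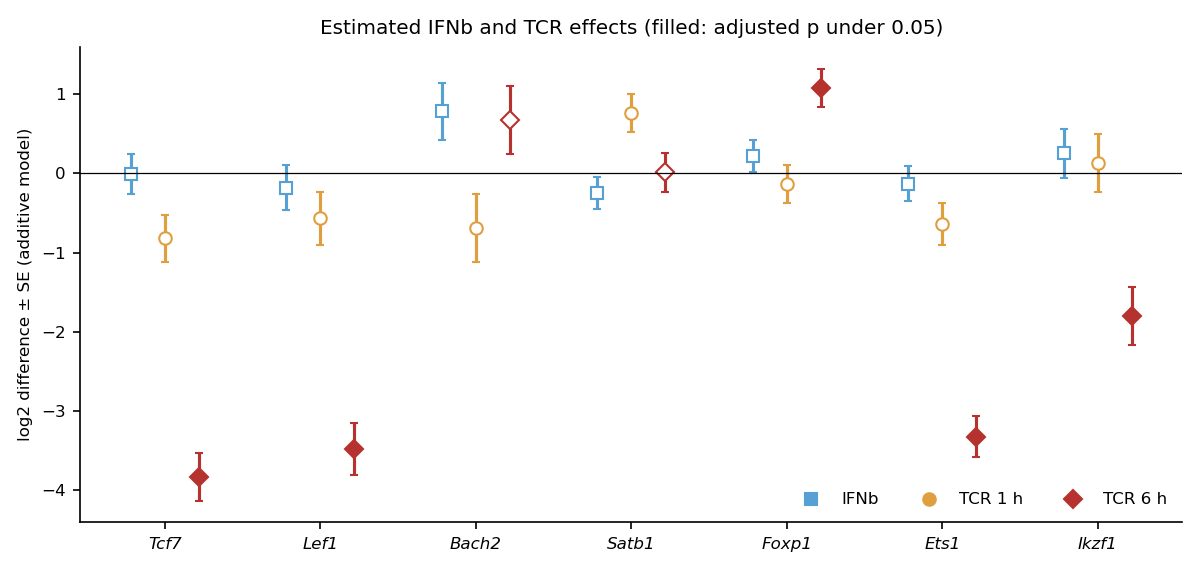
Estimated effects of IFNβ, TCR 1 h and TCR 6 h on each gene (log2 difference ± SE, limma additive model on 7 samples); filled points passed an adjusted p of 0.05. At 6 h Tcf7, Lef1, Ets1 and Ikzf1 were lower and Foxp1 was higher, and no estimate for IFNβ or TCR 1 h passed.

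At 1 h of TCR stimulation 0 of 7 genes passed with limma in either direction, where 1.73% of all genes passed as lower and 2.57% as higher. At an unadjusted p under 0.05 there were 3, Tcf7 and Ets1 lower and Satb1 higher, where 23.6% of all genes were under it. By the brightest probes, both arrays with 1 h of TCR stimulation lay below all arrays without it for Tcf7, Lef1 and Ets1. This held for 20.9% of all genes. For Satb1 they lay above, which held for 16.5%. The other Ets1 probes and the second Satb1 probe did not split this way. For Lef1 the gap was 0.02 log2, under the largest difference between untreated arrays, 0.11. At 6 h the arrays did not overlap for Tcf7, Lef1, Ets1 and Ikzf1 (lower, 33.0% of all genes) and for Foxp1 (higher, 35.8%).

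The difference between 6 h and 1 h of TCR stimulation was tested as a contrast of the same model, 2 arrays against 2. Lower at 6 h were 4 of 7 genes, where 15.6% of all genes passed, and higher was 1 of 7, where 16.4% passed. The contrast was -3.01 ± 0.33 for Tcf7 (8.04-fold lower, limma adjusted p = 0.0025), -2.90 ± 0.36 for Lef1 (0.003) and -2.68 ± 0.28 for Ets1 (0.0024). It was -1.92 ± 0.40 for Ikzf1 (limma adjusted p = 0.014) and 1.22 ± 0.26 for Foxp1 (0.015). For Bach2 it was 1.36 ± 0.46 (limma adjusted p = 0.069) and for Satb1 -0.75 ± 0.26 (0.074). The times of TCR stimulation lie on different slides, so the slide enters this contrast unless the untreated and IFNβ arrays of each slide are used to remove it. With the slide as a block the contrast was -3.11 for Tcf7 (limma adjusted p = 0.015), -2.82 for Lef1 (0.02), -2.73 for Ets1 (0.015), -1.69 for Ikzf1 (0.099) and 1.14 for Foxp1 (0.083). The calls for Tcf7, Lef1 and Ets1 held, and those for Ikzf1 and Foxp1 did not. Foxp1 also missed the threshold without any 1 of the 4 arrays with TCR stimulation (1.10 to 1.35, limma adjusted p from 0.052 to 0.09). Ikzf1 missed it without TCR 1 h (-2.04, limma adjusted p = 0.064), IFNβ with TCR 1 h (-1.81, 0.097) or IFNβ with TCR 6 h (-1.32, 0.082). Bach2 passed without IFNβ with TCR 6 h, at 2.19 (limma adjusted p = 0.021), and stood at 0.53 (0.36) without TCR 6 h. Satb1 passed with quantile normalization, at -1.19 (limma adjusted p = 0.039), and by its second probe, at -2.42 (0.017), and Ets1 missed the threshold with normexp correction at the 75th percentile, at -2.30 (0.062).

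B cell markers fell on the same arrays as Tcf7, Lef1, Ets1 and Ikzf1: 8 of 11 were lower at 6 h with limma, with a median of -2.29. For this and the marker counts that follow, 22.8% of all genes passed as lower at 6 h and 22.3% as higher. Of the CD8 T cell markers, 4 of 10 were lower and 1 was higher, with a median of -0.75. Cd8a stood at -2.14 ± 0.31 (limma adjusted p = 0.0024) and Cd3e at -0.52 ± 0.23 (0.11). Markers of class II presenting cells passed as lower for 5 of 10 and as higher for 1, those of NK cells as lower for 5 of 9 and as higher for 1 (Nkg7, at 2.15 ± 0.31, limma adjusted p = 0.0024), and those of myeloid cells as lower for 2 of 10. The summed NK signal was higher at 6 h, 2.94 and 3.2 times untreated, although more of its genes were lower. Of the CD4 T cell and erythroid markers, 6 and 4 measured, 0 passed at 6 h.

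IFNβ alone gave a different order from TCR stimulation. Among the 7 genes Bach2 alone was at least 2-fold above untreated on either array, 2.69-fold at 2 h and 2.82-fold at 7 h, where 9.99% and 10.7% of all genes were that much higher. Ikzf1 followed at 1.97-fold and 1.45-fold, and Foxp1 at 1.36-fold and 1.42-fold. Ets1 lay at -0.41 and -0.38, Satb1 at -0.35 and -0.32, Tcf7 at -0.30 and -0.06, and Lef1 at -0.12 and -0.18. These are the brightest probes, and the order depended on the probe. From 5′ to 3′ the other Ets1 probes lay at -1.32, -1.40 and -0.80 at 2 h and at -1.19, -1.04 and -0.60 at 7 h. The second Satb1 probe lay at 0.50 and 0.51, and that of Tcf7 at -0.53 and -0.36. On the same 2 arrays the B cell marker sum was 2.82 and 2.36 times untreated, that of class II presenting cells 2.19 and 1.39 times, and that of erythroid cells 2.29 times on both. BACH2 and Ikaros are also made by B cells, and the part of such cells in these values was not tested.

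Before TCR stimulation for 1 h, IFNβ gave 2.02-fold more Bach2 signal than TCR 1 h alone, where 10.0% of all genes were at least 2-fold higher. With the scanner files' names for this pair, Bach2 was 2.02-fold lower with IFNβ, and the same 10.0% of genes were at least 2-fold lower. By the value table's names, the B cell marker sum was 0.838 of that on the array without IFNβ. In the same pair Ikzf1 differed by 0.41, Ets1 by 0.35, Satb1 by 0.10, Foxp1 by 0.06, Tcf7 by -0.42 and Lef1 by -0.87. Before 6 h the order changed: Tcf7 differed by 0.64, Lef1 by 0.47, Foxp1 by 0.05, Ets1 by -0.26, Bach2 by -0.38, Satb1 by -0.49 and Ikzf1 by -0.60. Each of these pairs is 1 array against 1 array and has no replicate check.

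**Figure D4:**
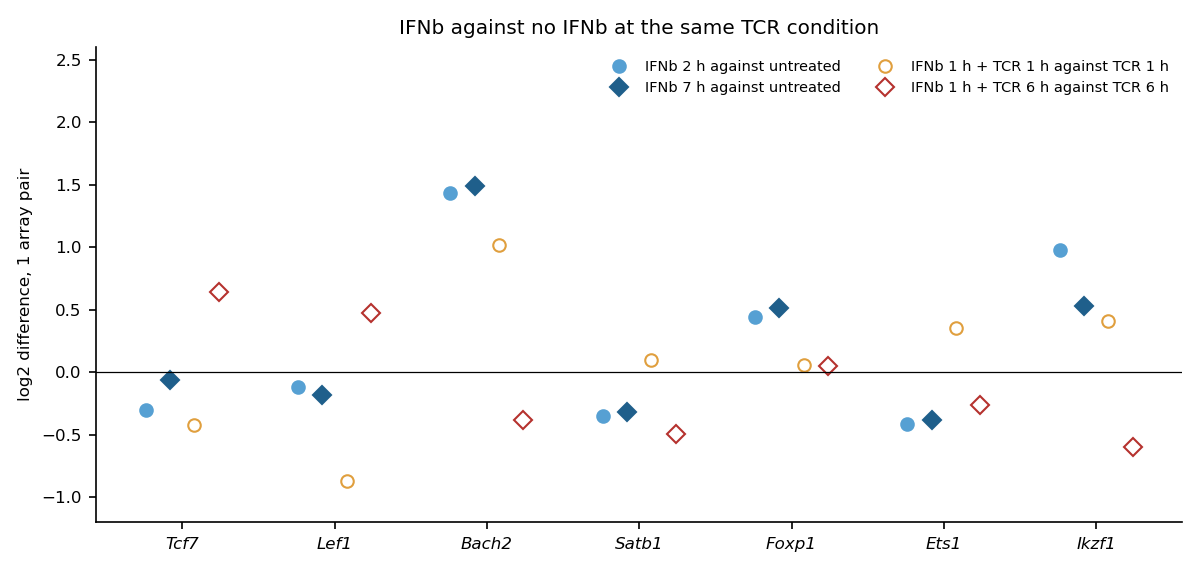
Difference (log2) between an array with IFNβ and the array or untreated mean without it at the same TCR condition, 4 comparisons for each gene. Bach2 and Ikzf1 are above 0 in 3 comparisons and below 0 at 6 h of TCR stimulation, and Tcf7 and Lef1 are below 0 in 3 and above 0 at 6 h. With the scanner files' names the comparison at 1 h changes sign, and each of these 4 genes is above 0 in 2 and below 0 in 2.

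Over the 4 pairs, Foxp1 was higher with IFNβ in 4, Bach2 and Ikzf1 in 3, and Tcf7, Lef1, Ets1 and Satb1 in 1. With the scanner files' names for the pair at 1 h these became 3 for Foxp1 and 2 for Bach2, Ikzf1, Tcf7 and Lef1. For Ets1 and Satb1 they became 0. The Foxp1 differences at 1 h and 6 h of TCR stimulation, 0.06 and 0.05 log2, were under the 0.11 between its untreated arrays. The IFNβ term of the model, 4 arrays against 3 samples, called 0 of 7 genes with limma, where 0% of all genes passed as lower and 0.0656% as higher, and 0 of 7 had an unadjusted p under 0.05. The estimate was 0.78 ± 0.36 for Bach2 (limma adjusted p = 0.63, 95% interval -0.09 to 1.65) and -0.25 ± 0.20 for Satb1 (0.77). Bach2 stood at 1.24 within slide 1 and at 0.54 within slide 2, and at 0.17 with the scanner files' names for the pair at 1 h. No gene of the 7 had all arrays with IFNβ on 1 side of all arrays without, a split seen as lower for 0.631% of all genes and as higher for 2.20%.

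Whether IFNβ acted alike with and without TCR stimulation was tested as an interaction, with 1 residual degree of freedom. That residual is the difference between IFNβ 2 h and IFNβ 7 h, which share 1 mean, and not a difference between replicates. None of the 7 genes passed with limma at 1 h or at 6 h, and 0% of all genes passed in either direction. At an unadjusted p under 0.05 there were 0 genes of the 7 at 1 h, against 7.61% of all genes, and 1 at 6 h, against 8.25%, which was Bach2. Its interaction at 6 h was -1.84 ± 0.46 (unadjusted p = 0.016, limma adjusted p = 0.52), and that of Ikzf1 was -1.36 ± 0.55 (unadjusted p = 0.067, limma adjusted p = 0.65).

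RefSeq promoter windows (GRCm38.p6) were available for 6 of the 7 genes. Windows with different sequences numbered 5 for Satb1, 4 for Lef1, 3 for Foxp1, 2 each for Tcf7 and Ikzf1, and 1 for Bach2. They were searched on both strands for 7 motifs, over the 250 bases before each start. The motifs were the interferon-stimulated response element (in 2.98% of all 32536 windows), TTCNNNGAA, the STAT site known as GAS (7.04%), and CTTTGAT for TCF and LEF (3.21%). The others were CCGGAAGT for ETS factors (2.9%), TGACTCA for AP-1 (4.45%), TGTTTAC for forkhead factors (3.17%) and TGGGAAT for Ikaros (4.03%). Matches were found in Bach2 and Tcf7 only, 1 each, and both are shown. The 250 bases before the start are printed 5′ to 3′ along the gene with the match in capitals. They are chr4:32417185-32417434 on the plus strand for Bach2, with a GAS match at -140 from the start, and chr11:52282596-52282845 on the minus strand for Tcf7, with an ETS match, on the opposite strand, at -26. A match is a description of the letters and no evidence of binding.
Bach2 promoter: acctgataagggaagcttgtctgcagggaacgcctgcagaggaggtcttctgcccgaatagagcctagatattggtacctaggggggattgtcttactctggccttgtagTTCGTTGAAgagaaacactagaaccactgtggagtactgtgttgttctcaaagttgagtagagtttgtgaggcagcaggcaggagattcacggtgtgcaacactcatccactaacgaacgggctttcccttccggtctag
Tcf7 promoter: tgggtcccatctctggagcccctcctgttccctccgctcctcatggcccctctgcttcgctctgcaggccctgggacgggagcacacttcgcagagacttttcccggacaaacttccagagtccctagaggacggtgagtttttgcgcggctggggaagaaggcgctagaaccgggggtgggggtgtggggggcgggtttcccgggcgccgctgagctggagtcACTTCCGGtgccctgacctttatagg

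Genes that work with the 7 were followed in 9 lists, and all values below are estimates at 6 h of TCR stimulation with limma, where the median of all genes was 0.05 and 22.8% of all genes passed as lower and 22.3% as higher. Of 23 TCF and LEF partners and Wnt pathway genes, 12 were lower and 3 higher, with a median of -1.22. Axin2, a common Wnt target, was at -4.49 ± 0.42 (adjusted p = 0.00061), Tcf7l2, another gene of this family, at -3.97 ± 0.46 and the corepressor gene Tle5 at -2.93 ± 0.23. Lrp6, a Wnt coreceptor, was at 2.09 ± 0.33, Tle3 at 1.60 ± 0.25 and Axin1 at 0.77 ± 0.25. The remaining TCF gene, Tcf7l1, was also lower, at -2.75 ± 0.34 (limma adjusted p = 0.0014).

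In the ETS family 7 of 15 genes were lower and 2 higher, with a median of -0.56. Fli1, the neighbour of Ets1 on chromosome 9, was lower at -3.00 ± 0.24 (limma adjusted p = 0.00047), Elf1 at -2.16 ± 0.33 and Elk3 at -1.98 ± 0.31, while the repressor Erf was higher at 2.15 ± 0.48 and Ets2 at 0.95 ± 0.29. The relatives of Ikaros split: Ikzf2 (Helios) was lower at -2.03 ± 0.42 (limma adjusted p = 0.0095), Ikzf3 (Aiolos) higher at 1.83 ± 0.40 (0.011), and Ikzf4 and Ikzf5 stood at -0.47 and -0.29 and did not pass. Among 14 forkhead genes 4 were lower, led by Foxo3 at -2.95 ± 0.45, Foxo1 at -2.05 ± 0.32 and Foxj2 at -1.30 ± 0.24, and 4 were higher, led by Foxk2 at 2.16 ± 0.23, Foxp4 at 1.52 ± 0.31 and Foxn2 at 1.34 ± 0.24. Their median was 0.10. Of the 14, 11 were well above background on 8 of 8 arrays, while Foxo3 was so on 5 and Foxp2 on 4. Foxp4, like Foxp1, was higher, and Foxp2 and Foxp3 stood at -0.32 and 0.36 and did not pass.

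The small MAF proteins pair with BACH2 on DNA. Of 13 BACH and MAF partners, 6 were higher and 3 lower, with a median of 1.05. Mafg was at 2.95 ± 0.28 (limma adjusted p = 0.00064), Maff at 2.52 ± 0.28 and Nfe2l1 at 2.18 ± 0.32, and lower were Maf at -2.50 ± 0.40, Jun at -2.45 ± 0.66 and Nfe2l2 at -1.33 ± 0.23. Bach1, the paralogue of Bach2, stood at 1.05 ± 0.45 and did not pass (limma adjusted p = 0.10). Among 20 chromatin partners of SATB1, Ikaros and TCF1, 10 were higher and 1 lower, with a median of 0.76: the NuRD subunit genes Rbbp7 at 2.11 ± 0.27 and Mbd3 at 1.79 ± 0.28 and the deacetylase gene Hdac2 at 1.77 ± 0.24 were higher, and the remodeller gene Chd3 was lower at -2.14 ± 0.28.

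Of 21 other factors of resting and memory T cells, 10 were lower and 2 higher, with a median of -1.03. The quiescence factors Klf3 and Klf2 stood at -6.20 ± 0.41 and -5.01 ± 0.42 and Pou6f1 at -4.61 ± 0.46, while Id3, an inhibitor of E proteins, was higher at 2.84 ± 0.66 and Nfatc1 at 0.95 ± 0.29. Of 5 surface genes of naive T cells 3 were lower, among them Il7r at -7.37 ± 0.26 and S1pr1 at -6.59 ± 0.55, and Cd27 was higher at 1.41 ± 0.46. Effector factors had more genes higher than lower, 9 against 3 of 15, with a median of 2.31. Irf4 was at 5.47 ± 0.40, Bhlhe40 at 5.38 ± 0.33 and Irf8 at 4.91 ± 0.54, and Stat4 at -1.48 ± 0.26, Prdm1 at -1.42 ± 0.32 and Runx3 at -1.16 ± 0.30 were lower. For IFNβ 0 of 130 genes of these lists passed with limma, where 0% of all genes passed as lower and 0.0656% as higher. An unadjusted p under 0.05 was seen for 17 (13.1%), against 8.59% of all genes. At 1 h of TCR stimulation 9 of the 130 passed with limma, all higher, 5 of them effector factors, where 2.57% of all genes passed as higher and 1.73% as lower.

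The genes most like each of the 7 were found by the root mean square difference in log2 change from untreated over the 6 treated conditions, among 12122 named genes well above background on all arrays. Closest to Tcf7 were Gpd1l at 0.21 and D2hgdh at 0.25, and closest to Lef1 were Plec at 0.19 and Cxx1b at 0.23. For Ets1 they were Ctns at 0.16 and Heatr5a at 0.22. For Ikzf1 they were Cbara1 at 0.17 and Wscd2 at 0.28, and for Foxp1 Aire and Swi5, both at 0.12. Satb1 was closest to Tet2 and Dppa2, both at 0.14. Bach2 had the most distant neighbours, Mrpl30 at 0.35 and Plcl2 at 0.37. The 7 genes themselves were left out of this search.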

How the data were processed

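Gene expression was measured on 8 one-colour Agilent arrays. The scanner files deposited by the authors hold processed signal as linear intensity, made with Agilent Feature Extraction (10.7.3.1 per the file headers, 9.5.3.1 per the submitters' processing notes), in probe coordinates of mm9. Each column in the value table that was deposited equals the intensity of a single array times 1 factor. Here each array's log2 signal was set relative to its 75th percentile, outlier spots were left out, repeated spots were averaged, and probes well above background on at least 2 arrays were kept. Symbols were updated through RefSeq accessions for 26792 of 41174 probes, and 14382 kept the file's name. Linear models over all genes used limma 3.58.1 (R 4.3.3, data.table version 1.17.8), with the untreated mean as 1 of 7 samples. The additive model (IFNβ, TCR 1 h, TCR 6 h) had 3 residual degrees of freedom. P-values were adjusted by Benjamini-Hochberg, with a threshold of 0.05, and the script was tested on simulated data. Intervals are 95%. Figures were drawn with matplotlib 3.10.9 and pandas 2.3.3 in Python 3.11.15.

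The genes and lists were chosen with earlier results of these data known. Besides the 7 genes, the text names the 2 nearest genes of each, up to 3 genes of each list with the largest called change in each direction at 6 h, and relatives of the 7; 1 gene that this rule names is not reported here. Alternatives covered scaling, background, filters, probes, slides, array names and single arrays. Fits of each probe on its own were added after seeing the data.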

Additional observations from a re-analysis of the deposited data

Results flagged for a closer look

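The effect of TCR stimulation at 6 h differed from that at 1 h by a limma test of the difference for 5 of the 7 genes. The difference, 6 h minus 1 h, was -3.01 log2 for Tcf7, -2.90 for Lef1, -2.68 for Ets1, -1.92 for Ikzf1 and 1.22 for Foxp1. The times of stimulation lie on different slides, and with the slide as a block the differences for Ikzf1 (-1.69) and Foxp1 (1.14) no longer passed.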

How the results depend on the processing

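Under other settings 167 of 185 counts of genes stayed within 1.5 times their value, and 435 of 487 estimates kept their direction and side of the threshold. Counts of 0 that stayed 0 are among the 167. The main counts were 0 for IFNβ, for TCR 1 h and for both interactions. The calls for Tcf7, Lef1 and Ets1 at 6 h of TCR stimulation held under every setting that gave a value. The 4 genes lower at 6 h became 3 with normexp correction at the 75th percentile and without IFNβ with TCR 6 h. The count of 1 gene higher at 6 h became 0 with quantile normalization, with normexp background correction (75th percentile or quantile) and on slide 2 alone. Without IFNβ with TCR 6 h, Foxp1 stood at 1.22 and Bach2 at 1.58. Without TCR 6 h they stood at 0.97 and -0.07, so which of them was higher depended on the array. For 6 h against 1 h the count of 1 higher became 0 with quantile normalization, with normexp correction (either scaling) and with the slide as a block. It became 2 with median scaling and with probes well above background on all arrays. Without IFNβ with TCR 6 h, Foxp1 stood at 1.35 and Bach2 at 2.19, and without TCR 6 h at 1.10 and 0.53. The 4 lower became 2 with normexp correction at the 75th percentile and 3 with the slide as a block, and were 5 under 5 other settings. With 1 array left out Ikzf1 ranged from -2.53 to -1.32. At 1 h, 1 gene was higher (Satb1) with untreated arrays as separate samples, where 6.32% of all genes were, and 1 lower (Tcf7) with normexp correction and quantile normalization, where 5.6% were. Normexp correction at the 75th percentile gave 2 genes with an IFNβ interaction at 1 h, where 48.3% of all genes passed as lower and 7.1% as higher.

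Signs changed for estimates that had not passed the threshold. Satb1 at 6 h became -0.77 with quantile normalization, with or without normexp correction, -0.94 with the mean of probes, -1.89 with its second probe, -0.01 without the pair at 1 h, and ranged from -0.14 to 0.20 with single arrays left out (0 without the second untreated array, -0.01 without IFNβ 2 h, TCR 1 h or IFNβ with TCR 1 h, and -0.14 without TCR 6 h). Its IFNβ estimate became 0.09 with normexp correction at the 75th percentile and 0.05 with its second probe. Ets1 at 1 h became 0.08 with the mean of probes and 0.48, 0.46 and 0.01 with its other probes. With single arrays left out Bach2 at 6 h ranged from -0.07 (without TCR 6 h) to 1.58, and Ikzf1 at 1 h from 0 (without IFNβ with TCR 1 h) to 0.32. The cause was not tested. Scaling to the median moved the median of all genes at 6 h from 0.05 to 0.375, and the share called from 22.8% lower and 22.3% higher to 17.9% and 30%. No paired analysis was possible because the labels give replicate numbers to the untreated arrays alone, which are 1 group. The contrast of 6 h with 1 h gave no value on 1 slide alone, and the interactions gave none on 1 slide alone or without IFNβ 2 h or 7 h, nor did that at 1 h without either or both arrays of its pair, or that at 6 h without either of its own.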
